A study of Mus musculus with 72 samples.

Results

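The genes described here encode the proteins of the mitochondrial ribosome. They are the 76 genes, of 20239 named genes on the array, whose symbols start with Mrpl or Mrps followed by a number, with 1 probe set kept for each symbol. All 76 were tested, since no filter on low values was used. Their transcripts were measured in 2 hindlimb muscles of male C57BL/6 mice at an age of 5 months: the soleus (SOL), made largely of slow fibres, and the fast tibialis anterior (TA). In muscle-specific Bmal1 knockouts (mKO) a Cre recombinase driven by the Mlc1f promoter, which is active in muscle fibres, had recombined floxed Bmal1, and the controls (Ctrl) were littermates without Cre. Each genotype had 18 animals, which gave both muscles at 1 of 6 Zeitgeber times (ZT0 to ZT20, 4 h apart, with light from ZT0 to ZT12), so that 72 arrays formed 24 groups of 3. Values are log2 signals, and differences between groups are given in log2 units. Because the Ctrl animals carried no Cre, effects of Cre itself and of losing Bmal1 cannot be told apart, and in whole muscle a change in RNA per cell cannot be told apart from a change in the share of cells.

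Mitochondrial ribosomes translate the few proteins that the mitochondrial genome encodes, all of them subunits of the respiratory chain or of ATP synthase. Their RNA comes from mitochondrial DNA, while every ribosomal protein is encoded in the nucleus, made in the cytosol and imported. Some of these proteins descend from bacterial ribosomal proteins and others were added in the mitochondrion. BMAL1, with its partner CLOCK, binds E-box motifs and drives the daily rhythm of transcription, and muscle is rich in mitochondria. By these classes the members comprised 27 proteins of the large subunit with a bacterial counterpart, 21 of the large subunit found only in mitochondria, 17 of the small subunit with a bacterial counterpart and 9 of the small subunit found only in mitochondria. A further 2, Mrps18a and Mrps30, carry small subunit names but belong to the large subunit.

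The promoters are shown first because the members are separate nuclear genes whose products form 1 particle. RefSeq windows of 300 bases, from 250 before to 50 after the transcription start (build GRCm38.p6), were given for 67 members, which had 73 windows. The letters CCGGAAG, the core of the site bound by ETS factors such as GABPA, were found on either strand in 35.6% of the members' windows and in 8.86% of all 32851 windows of that length. AAGATGGC, the core of the YY1 site, was found in 16.4% of the members' windows and 2.75% of all windows, and GCATGCGC, a core of the NRF1 site, in 8 of the 73 and 2.71% of all windows. NRF1, GABPA and YY1 are known regulators of nuclear genes for mitochondria. The E-box CACGTG was found in 9.59% of the members' windows and 7.15% of all windows, and the cyclic AMP response element TGACGTCA in 2.74% and 1.79%. Overlapping windows of Mrpl2 repeat the same E-box. Counted by gene, the E-box was found in 7.46% of the 67 members with a window and in 8.09% of all genes with a window. The ETS core ends in the letters AAG that begin the YY1 core, so their matches can overlap. The median GC content was 58.7% in the members' windows and 52.7% in all windows. Among the 22 members with a window that were higher in mKO in at least 1 muscle (results given further on), the E-box was found in 2, the NRF1 core in 2, the ETS core in 9 and the YY1 core in 5. Among the other 45 members with a window they were found in 3, 6, 17 and 7, so no motif is shown to be particular to the members called. A match describes these letters and does not show binding.

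Windows of 4 of those 22 members are printed as examples of each arrangement, chosen after their values were seen. Motifs are in capitals, and all 4 genes lie on the plus strand. Mrps18a (chr17:46110754-46111053) holds an ETS core that begins 26 bases before the start and a YY1 core at base 11 after it. Mrpl58 (chr11:115403502-115403801) holds a pair of ETS cores, 17 and 2 bases before the start. Mrpl10 (chr11:97041332-97041631) holds an NRF1 core 134 bases before the start, and Mrpl20 (chr4:155802628-155802927) an E-box 33 bases before it.
Mrps18a: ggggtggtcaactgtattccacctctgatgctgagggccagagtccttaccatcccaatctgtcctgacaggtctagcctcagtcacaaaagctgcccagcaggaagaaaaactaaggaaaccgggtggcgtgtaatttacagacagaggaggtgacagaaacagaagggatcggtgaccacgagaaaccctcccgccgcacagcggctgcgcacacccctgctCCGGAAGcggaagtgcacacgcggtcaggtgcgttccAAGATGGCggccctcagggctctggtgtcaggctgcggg
Mrpl58: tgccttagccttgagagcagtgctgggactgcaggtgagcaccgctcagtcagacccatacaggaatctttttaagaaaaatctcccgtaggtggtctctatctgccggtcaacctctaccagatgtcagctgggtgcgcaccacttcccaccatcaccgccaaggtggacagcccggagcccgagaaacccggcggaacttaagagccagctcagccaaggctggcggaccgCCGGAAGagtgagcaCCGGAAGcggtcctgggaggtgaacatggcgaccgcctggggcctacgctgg
Mrpl10: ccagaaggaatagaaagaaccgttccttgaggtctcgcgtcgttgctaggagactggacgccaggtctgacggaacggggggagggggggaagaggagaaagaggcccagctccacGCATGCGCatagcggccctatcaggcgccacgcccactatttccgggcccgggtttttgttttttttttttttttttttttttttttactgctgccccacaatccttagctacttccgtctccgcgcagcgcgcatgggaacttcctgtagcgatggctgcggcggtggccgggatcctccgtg
Mrpl20: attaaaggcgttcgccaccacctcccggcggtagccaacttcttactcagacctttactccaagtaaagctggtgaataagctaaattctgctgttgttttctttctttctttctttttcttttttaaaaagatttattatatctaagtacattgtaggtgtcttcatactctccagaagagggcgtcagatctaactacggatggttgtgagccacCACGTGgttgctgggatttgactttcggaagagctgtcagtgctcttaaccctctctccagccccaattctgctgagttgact

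On these arrays the medians of all named genes lay between 6.69 and 6.85, and the muscles matched their labels. The mean of 8 slow fibre markers was 13.0 to 13.3 in SOL and 7.25 to 8.23 in TA, and that of 8 fast fibre markers 10.95 to 12.5 and 13.3 to 13.5. Bmal1 itself (Arntl on the array) did not pass the test in SOL (mKO minus Ctrl 0.09 ± 0.060 SE, adjusted p = 0.508) or TA (-0.07 ± 0.059, adjusted p = 0.465). Where its probes lie relative to the deleted part is not known here, so its signal checks nothing about the labels. Dbp, a clock output gene chosen after its values were seen, fell in SOL to 0.619-fold (adjusted p = 6.78e-08) and in TA to 0.340-fold (adjusted p = 6.17e-18). The library TA Ctrl ZT0 replicate A carried liver transcripts, with a mean of 11.3 over 8 hepatocyte markers against a TA Ctrl median of 5.67. The next highest array was TA Ctrl ZT4 replicate C, at 8.14. The SOL array of that ZT4 animal was the highest in SOL of Ctrl, at 7.64 against a median of 5.56. On TA Ctrl ZT0 replicate A the members lay a median of 0.024 above their group mates, and results are also given without that ZT0 animal. The animals' identification numbers fall in 3 series (BM3 with 23 animals, BM2* with 7, BM2 with 6), whose meaning the labels do not give. At ZT20 all mKO animals were BM2 and all Ctrl animals BM3, so that series and genotype cannot be told apart there. At ZT16 all mKO animals were BM3, while the Ctrl animals were BM3 or BM2*, so the series were unbalanced between genotypes there too.

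Most members were well measured. Averaged over the 72 arrays, 74 of the 76 ranked in the upper part of the 20239 genes, above the median level, and Mrps21 ranked at the 98.3rd percentile. Mrps33 and Mrpl27 were the exceptions, and Mrpl27 (4.43, the 10.2nd percentile) was dim on every array, between 4.15 and 4.82. Within groups of 3 animals the SD had a median over members of 0.124 in either muscle, against 0.141 in SOL and 0.151 in TA over all genes. It ran from 0.057 (Mrps23) to 0.258 (Mrps33) in SOL and from 0.066 (Mrps2) to 0.298 (Mrpl22) in TA. Apart from these ranks, a rough guide because probes differ in brightness, log2 signals of different genes were not set against each other.

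In SOL, 13 of the 76 members were higher in mKO and 0 were lower at an adjusted p under 0.05 (limma, Benjamini-Hochberg over 20239 genes, mean over the 6 times). Over all genes, 3.56% were called higher and 3.54% lower. At an unadjusted p under 0.05, 27 members were higher and 1 lower. The share of all genes at that unadjusted threshold was not computed, so such counts here and further on have no background. With arrays weighted by their quality 22 were called higher, when the share of all genes called higher also grew, to 5.24%. The effects were small: the median over members was 0.07 (1.05-fold), the largest 0.21, and the median over all genes 0.0009. The difference was positive for 66 of the 76, against 50.6% of all genes.

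Mrps23, a protein of the small subunit found only in mitochondria, had the smallest p in SOL. Its lowest, median and highest log2 signals were 9.65, 9.85 and 9.91 in the 18 Ctrl animals and 9.83, 10.05 and 10.13 in the 18 mKO animals. Of the mKO animals 16 lay above the highest Ctrl animal, and the ranges overlapped through the other two. The difference was 0.20 ± 0.026 (SE), or 1.15-fold, with an adjusted p of 1.36e-06, and it was positive at all 6 times.

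Mrps34, a small subunit protein that stabilises the small ribosomal RNA, ran from 8.14 through a median of 8.37 to 8.51 in Ctrl and from 8.33 through 8.54 to 8.82 in mKO, with 13 mKO animals above the highest Ctrl animal. It rose by 0.21 ± 0.038 (1.16-fold, adjusted p = 0.000179). Mrps18a rose by 0.20 ± 0.040 (adjusted p = 0.000951), from a Ctrl median of 9.68 to 9.81, with 8 mKO animals above every Ctrl animal. Mrpl19, a large subunit protein with a bacterial counterpart, rose by 0.17 ± 0.034 (adjusted p = 0.000841), with 12 mKO animals above the Ctrl range. Mrps2, whose bacterial counterpart is among the last proteins to join the small subunit, rose by 0.17 ± 0.033 (adjusted p = 0.000765), and Mrpl10, the base of the stalk that recruits translation factors, by 0.16 ± 0.037 (adjusted p = 0.00456). For these 5 the genotypes overlapped, and the difference was positive at 6 of 6 times.

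The other 7 calls in SOL were Mrps27 (0.18), Mrpl14 (0.21), Mrpl52 (0.21), Mrps24 (0.12), Mrpl55 (0.11), Mrpl45 (0.13) and Mrpl58 (0.11), with adjusted p from 0.00551 to 0.0486. Mrpl58 differs in function from the rest, since it also acts as a peptidyl-tRNA hydrolase that frees stalled ribosomes. Among the 63 members that did not pass, differences ran from -0.08 (Mrpl48, adjusted p = 0.209) to 0.19 (Mrps21, adjusted p = 0.175). By class, the members called higher were 3 of 27 large subunit proteins with a bacterial counterpart, 4 of 21 found only in mitochondria, 2 of 17 and 3 of 9 of the corresponding small subunit classes, and Mrps18a. Every class had a positive median, from 0.05 to 0.10.

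In TA, 21 members were higher and 1, Mrpl13, was lower. Over all genes 6.76% were called higher and 8.06% lower. At an unadjusted p under 0.05 the counts were 27 and 2, and without mKO ZT16 replicate B 2 members were called lower (7.7% of all genes). The median over members was 0.06 (1.04-fold) against 0.02 over all genes, and 64 of 76 members were positive against 59.0% of all genes.

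Mrpl14, a large subunit protein at the face that meets the small subunit, had the smallest p. Its lowest, median and highest signals in TA were 9.04, 9.14 and 9.31 in Ctrl and 9.27, 9.46 and 9.77 in mKO. The genotypes were nearly separate, with 16 of 18 mKO animals above the highest Ctrl animal. The rise was 0.31 ± 0.035 (1.24-fold, adjusted p = 7.49e-08).

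Mrps34 followed, with 8.12, 8.40 and 8.60 in Ctrl and 8.48, 8.67 and 8.96 in mKO. All 18 mKO animals lay above the Ctrl median and 12 above the highest Ctrl animal, a rise of 0.29 ± 0.047 (1.22-fold, adjusted p = 2.94e-05). Mrps2 rose by 0.17 ± 0.027 (adjusted p = 3.66e-05), from a median of 9.25 to 9.40. Mrpl54, found only in mitochondria, rose by 0.19 ± 0.032 (adjusted p = 7.21e-05), Mrpl58 by 0.15 ± 0.029 (adjusted p = 0.000298) and Mrpl10 by 0.17 ± 0.034 (adjusted p = 0.000522). The ranges of the genotypes overlapped for each of these members, and each was higher in mKO at 6 of 6 times.

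Mrpl13, a large subunit protein with a bacterial counterpart, went the other way. Its signals were 8.01, 8.25 and 8.47 in Ctrl and 7.80, 8.11 and 8.37 in mKO, a fall to 0.906-fold (-0.14 ± 0.042, adjusted p = 0.0190). The ranges overlapped widely, and 3 mKO animals lay below the lowest Ctrl animal. In SOL its difference was also negative, at -0.08 ± 0.050, and did not pass (adjusted p = 0.513).

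The other 15 rises in TA were smaller than 0.21. Mrps23 (0.20), Mrpl20 (0.20), Mrpl18 (0.19) and Mrps18a (0.19) led them, and Mrps5 (0.15), Mrpl43 (0.13), Mrps18b (0.13), Mrpl11 (0.16), Mrpl55 (0.14), Mrpl30 (0.13), Mrpl28 (0.16), Mrps7 (0.12), Mrps12 (0.16), Mrpl19 (0.10) and Mrpl2 (0.10) followed, with adjusted p from 0.000643 to 0.0405. Mrps12 and Mrps5 are counterparts of bacterial proteins of the decoding centre. Among the 54 members that did not pass, Mrps21 had the most negative value (-0.12, adjusted p = 0.447). By class, 9 of 27 and 4 of 21 large subunit proteins, 5 of 17 and 2 of 9 small subunit proteins, and Mrps18a were called higher.

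**Figure D1:**
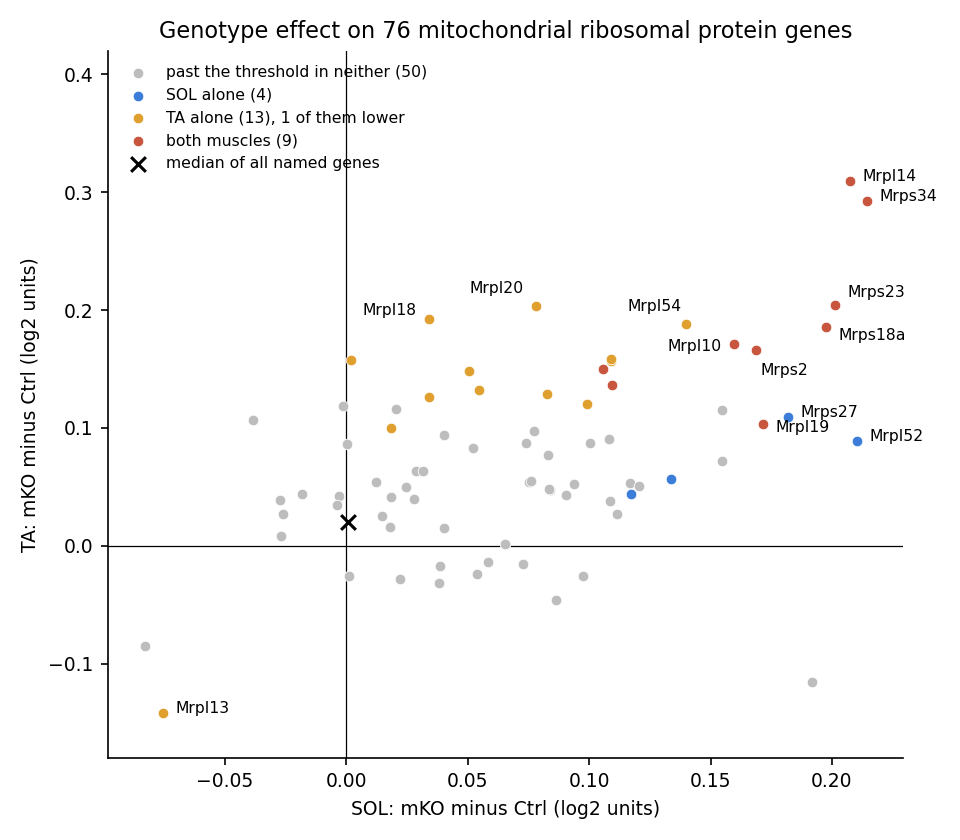
Difference between mKO and Ctrl in SOL (x axis) and TA (y axis) in log2 units for 76 genes, coloured by the muscle in which the adjusted p was under 0.05, with the median of all named genes as a cross. Most points lie in the upper right, where 56 members are positive in both muscles, with Mrpl14 and Mrps34 farthest out and Mrpl13 at the lower left.

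Both muscles called 9 of the same members higher: Mrpl10, Mrpl14, Mrpl19, Mrpl55, Mrpl58, Mrps18a, Mrps2, Mrps23 and Mrps34. They are 69.2% of the SOL calls and 42.9% of the TA calls. Over all genes 2.14% were called higher in both muscles, which is 60.3% of the genes higher in SOL and 31.7% of those higher in TA. The difference was positive in both muscles for 56 members, or for 37.8% of all genes, and negative in both for 2, Mrpl13 and Mrpl48. Both muscles came from the same animals, whose deviations were almost uncorrelated between muscles (0.026 in 1 fit of both). In the test of the difference between muscles, 1 member (Mrpl18) had a larger genotype effect in TA and 0 in SOL, against 1.2% and 1.52% of all genes, with 5 and 2 members at an unadjusted p under 0.05.

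Mrpl18, the counterpart of a bacterial protein that binds the smallest ribosomal RNA, ran from 9.10 through 9.26 to 9.42 in SOL of Ctrl and from 9.09 through 9.26 to 9.50 in SOL of mKO. In TA it ran from 9.09 through 9.36 to 9.54 in Ctrl and from 9.40 through 9.56 to 9.94 in mKO. The genotypes coincided in SOL (0.03 ± 0.040, adjusted p = 0.781), while 10 of 18 mKO animals lay above every Ctrl animal in TA (0.19 ± 0.044, adjusted p = 0.00235). The effects differed by 0.16 ± 0.043 (adjusted p = 0.0350). Leaving out any 1 of 18 of the 36 animals, or centring the arrays on their medians (adjusted p = 0.0905), ended that call. Mrps21 had the most negative difference of effects, -0.31 ± 0.138, which did not pass (adjusted p = 0.357).

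**Figure D2:**
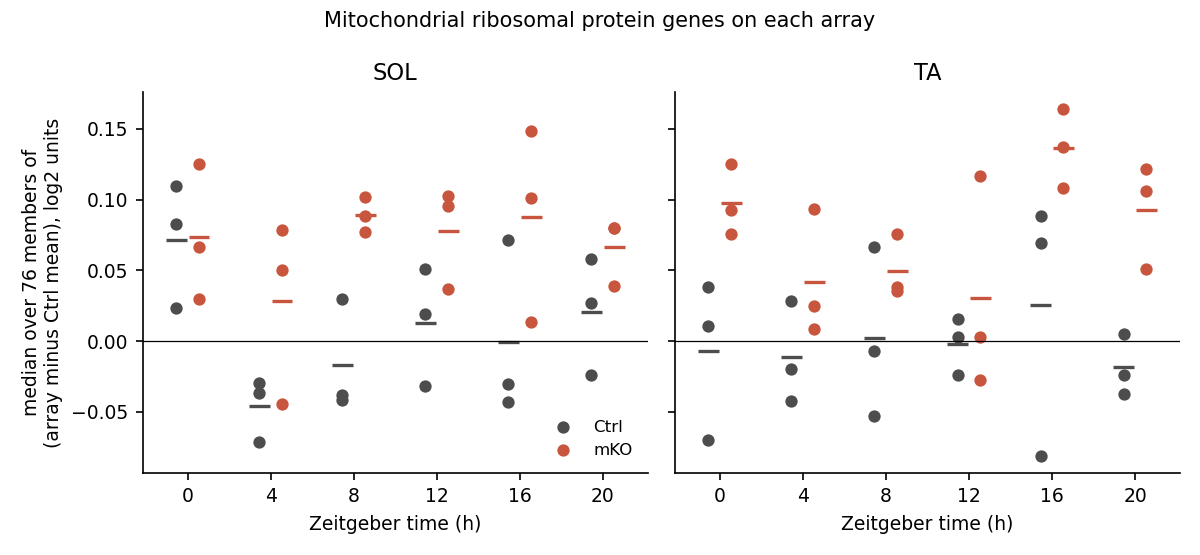
Median over the 76 genes of each array's log2 signal minus the Ctrl mean of the same muscle, by Zeitgeber time in hours, for Ctrl (grey) and mKO (red), 1 point per animal and a bar at the mean of 3. In each muscle 17 of 18 mKO arrays lie above 0, and the SOL groups at ZT0 coincide.

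Seen array by array, the members' median relative to the Ctrl mean of the muscle was -0.07, -0.002 and 0.11 (lowest, median, highest) in SOL of Ctrl and -0.04, 0.08 and 0.15 in SOL of mKO. In TA it was -0.08, -0.002 and 0.09 in Ctrl and -0.03, 0.08 and 0.16 in mKO. So 17 of 18 mKO arrays lay above the Ctrl mean in either muscle, while 2 in SOL and 9 in TA exceeded the highest Ctrl array. Over all genes the same measure stayed between -0.04 and 0.04 except on 1 array, TA mKO ZT0 replicate C, where it was 0.12 and the members' was 0.09.

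With 3 animals per genotype, single times called few members. Called higher in SOL were 0 members at ZT0 (0.173% of all genes), ZT4 (0.178%), ZT8 (0.524%), ZT12 (0.376%) and ZT20 (0.38%), with 3, 8, 15, 10 and 3 members at an unadjusted p under 0.05 in limma. At ZT16 (0.489%) Mrps23 passed: its Ctrl animals read 9.74, 9.72 and 9.65 and its mKO animals 9.90, 9.98 and 10.06, a difference of 0.27 ± 0.064 (adjusted p = 0.0245). The members' median differed most at ZT8 in SOL (0.11, with 67 of 76 positive) and least at ZT0 (0.003, with 38 positive). Whether these times differ from each other was not tested, and at ZT16 the series were unbalanced between genotypes.

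In TA, ZT0 (0.835% of all genes) called 3 members. Mrpl14 read 9.07, 9.15 and 9.08 in Ctrl and 9.54, 9.44 and 9.77 in mKO there, a difference of 0.48 ± 0.086 (adjusted p = 0.000996). Mrpl54 (0.33, adjusted p = 0.0214) and Mrps34 (0.47, adjusted p = 0.0280) passed too. The ZT0 groups did not overlap in any of the 3, which were picked by their p. The share of all genes without overlap was not computed. Those groups hold both arrays that stood apart, Ctrl replicate A with liver transcripts and mKO replicate C with a high median, and over all genes the median difference was 0.05. Mrpl14 alone passed without Ctrl replicate A (0.46, adjusted p = 0.00938), without mKO replicate C (0.38, adjusted p = 0.0181) and with centred arrays (0.44, adjusted p = 0.00206). The share of all genes called higher there was 0.544%, 0.558% and 0.46%. Without both arrays 0 members passed (0.455% of all genes), with 12 at an unadjusted p under 0.05 in limma, and Mrpl14 differed by 0.37 (adjusted p = 0.0776). ZT16 (1.05%) called Mrpl14 (0.33) and Mrpl20 (0.40), and ZT20 (0.815%) called Mrpl14 (0.33) and Mrps2 (0.28, from 9.29, 9.22 and 9.20 in Ctrl to 9.49, 9.54 and 9.52 in mKO). The series were unbalanced between genotypes at ZT16, and at ZT20 series and genotype cannot be told apart. ZT4 (0.642%), ZT8 (0.884%) and ZT12 (0.894%) called 0, with 7 members each at an unadjusted p under 0.05. At 6 of 6 times 23 members were positive in SOL, 23 in TA and 13 in both, against 5.77% of all genes in SOL and 10.9% in TA. The share of all genes positive at 6 of 6 times in both muscles was not computed.

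**Figure D3:**
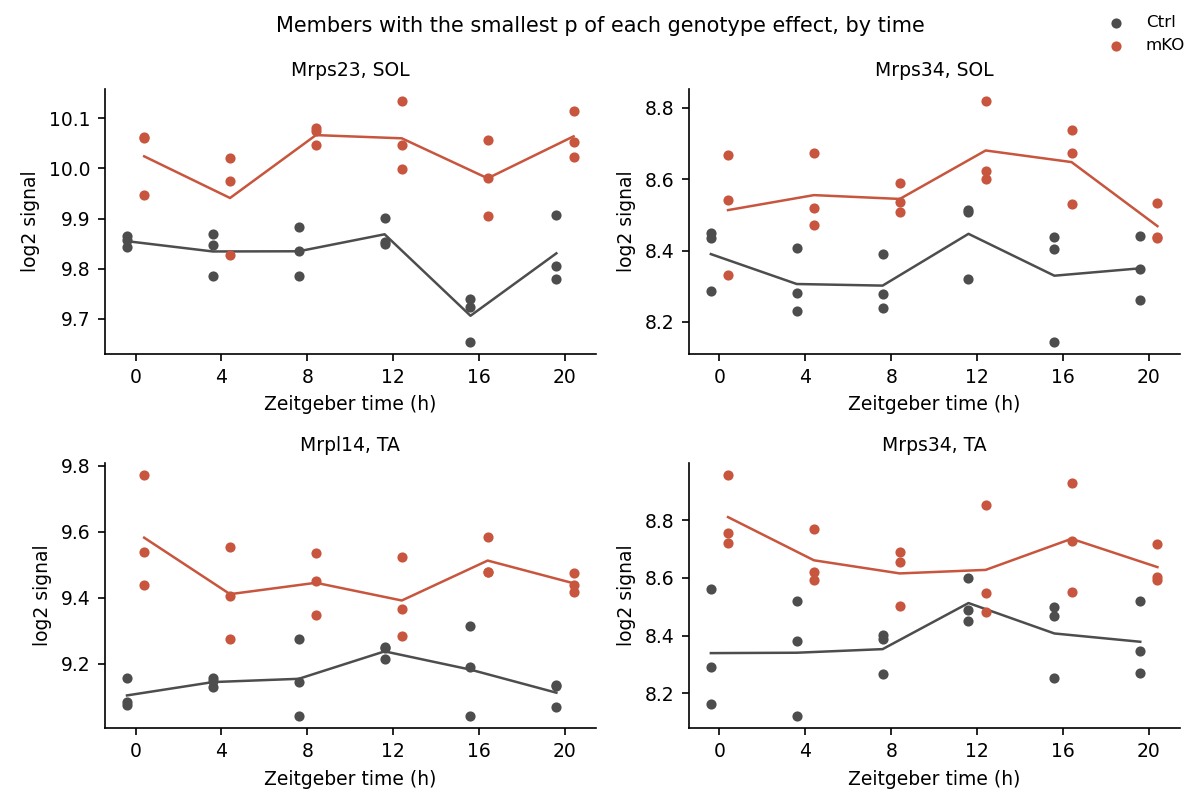
Log2 signal of Mrps23 and Mrps34 in SOL and of Mrpl14 and Mrps34 in TA by Zeitgeber time in hours, for Ctrl (grey) and mKO (red), 1 point per animal with lines through the means of 3. The mKO means lie above the Ctrl means at all 6 times in each panel.

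The counts depended on which animals entered. Among the 23 BM3 animals alone, 3 members were called higher in SOL (1.18% of all genes) and 11 in TA (4.23%), where Mrpl13 stayed the 1 lower. Among the 13 BM2 and BM2* animals, which share only ZT8 and ZT12 between genotypes, 0 were called higher in either muscle (10 and 4 at an unadjusted p under 0.05 in limma), against 0.425% of all genes in SOL and 0.82% in TA. So in these subsets the share of all genes called fell as well. They hold fewer animals, and they were fitted with additive terms for time and genotype, not with 1 term per group. In those subsets 61 and 65 members were positive in SOL and 60 and 52 in TA. The members' median in TA was 0.06 in BM3 animals and 0.03 in BM2 and BM2* animals, where Mrpl14 differed by 0.13, Mrpl54 by 0.11, Mrps34 by 0.19 and Mrpl13 by -0.28, none of which passed. Without Ctrl ZT0 replicate A, whose TA carried the most liver transcripts, 12 members were called higher in SOL (3.32% of all genes) and 20 in TA (6.05%). Mrpl13 stayed lower, and the medians were 0.06 and 0.06. Without ZT20, 10 members were called higher in SOL (2.55% of all genes) and 18 in TA (5.15%).

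Fibre type and other cells were read beside these results. In SOL 4 of 8 slow fibre markers were lower in mKO, with a mean level of 13.0 to 13.3 in Ctrl and 13.0 to 13.2 in mKO, and of the 8 fast markers 1 was higher and 1 lower. In TA 1 of 8 slow and 1 of 8 fast markers were higher. Of 6 adipocyte markers 0 were called in SOL and 1 was lower in TA, with means of 7.27 to 8.59 and 7.29 to 8.69 in SOL and 6.99 to 7.45 and 6.91 to 7.27 in TA (Ctrl, then mKO). The difference was positive for 0 of the 6 in either muscle, with medians of -0.10 in SOL and -0.10 in TA. Of 7 endothelial markers 1 was higher in SOL and 1 lower in TA. Of 6 macrophage markers 0 were called, with 2 positive in SOL and 1 in TA (medians -0.03 and -0.13). Of 8 fibroblast and tendon markers 1 was higher and 1 lower in SOL, and 1 was lower in TA. Of 3 Schwann cell markers 1 was lower in SOL, of 5 smooth muscle markers 1 was lower in TA, and of 4 satellite cell markers 1 was higher in TA. Of 3 erythroid and 8 hepatocyte markers 0 were called. Their part in the result was not tested.

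Genes that work with the mitochondrial ribosome were counted for comparison. Among 4 measured ribosomal proteins with other symbols, 1 rose in SOL and 2 in TA: Ptcd3, a small subunit protein, rose in both (0.14 and 0.17), and Gadd45gip1, of the large subunit, in TA (0.15). Mitochondrial aminoacyl-tRNA synthetases, which charge the transfer RNAs, rose in 2 of 16 cases in SOL and 6 of 16 in TA, with the smallest p in both for Sars2 (0.16 and 0.20) and Cars2 (0.14 and 0.17). Translation factors rose in 1 of 13 in SOL (Mtif2, an initiation factor, 0.13) and 2 of 13 in TA (Taco1, a translational activator of cytochrome oxidase, 0.15, and Mrrf, the ribosome recycling factor, 0.11). Assembly factors rose in 0 of 22 in SOL and 3 of 22 in TA, led by Rbfa (0.14) and Ngrn (0.13), which act on the small and the large subunit. For mitochondrial DNA transcription and RNA stability, 1 of 16 was lower in SOL (Polg2, -0.10) and 2 were higher in TA (Slirp, 0.13, and Tefm, 0.12). Of 9 regulators of nuclear genes for mitochondria 0 were called in SOL, and in TA Ppargc1a, a coactivator of mitochondrial biogenesis, was lower (-0.29 ± 0.047, adjusted p = 2.5e-05).

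Beside the 76 members stood 76 nuclear subunits of the respiratory chain and ATP synthase. Of these, 6 rose and 0 fell in SOL and 29 rose and 0 fell in TA, with medians of 0.05 and 0.08. Cytosolic ribosomal proteins gave 0 higher and 1 lower of 40 in SOL, and 1 higher and 2 lower in TA, with medians of 0.004 and -0.01. The difference between these lists was not tested.

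Between muscles, members were more often higher in TA than in SOL. Within Ctrl animals, 33 were higher in TA and 7 lower, against 22.9% and 20% of all genes, with a median of 0.08 against 0.02 over all genes. In mKO animals 36 were higher and 8 lower, against 27.8% and 20.4%, with a median of 0.09 against 0.04. The genotypes shared 29 of the calls higher in TA and 6 of those lower. The share of all genes called in both genotypes was not computed, so this overlap has no background.

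Mrpl12, the stalk protein that contacts translation factors and also binds the mitochondrial RNA polymerase, differed most. In Ctrl its lowest, median and highest signals were 9.56, 9.79 and 10.02 in SOL and 10.12, 10.43 and 10.70 in TA, with no overlap. It was higher in TA in 18 of 18 Ctrl animals, by 0.60 ± 0.050 (1.51-fold, adjusted p = 1.18e-11), and in mKO by 0.69 ± 0.050 (adjusted p = 3.68e-13). Mrpl16, next to the tRNA path of the large subunit, ran from 9.07 through 9.18 to 9.34 in SOL and from 9.45 through 9.57 to 9.74 in TA of Ctrl, again with no overlap (0.37 ± 0.033, adjusted p = 4.54e-11). Mrps7, an early member of small subunit assembly, was higher by 0.30 ± 0.033, also without overlap between 8.90, the highest SOL animal, and 8.94, the lowest TA animal. These members were picked by their p, and the share of all genes without overlap between muscles was not computed. Mrps28 (0.34), Mrpl13 (0.31) and Mrpl58 (0.22) completed the 6 with the smallest p, and in mKO Mrpl18 (0.27) and Mrps5 (0.27) were among them.

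Lower in TA of Ctrl were Mrps9 (-0.20 ± 0.032, adjusted p = 6.17e-06), Mrpl33 (-0.23 ± 0.043, adjusted p = 3.44e-05), Mrpl41 (-0.17), Mrps17 (-0.22), Mrpl57 (-0.10), Mrpl51 (-0.13) and Mrps18a (-0.11). Mrps9 was lower in TA in 17 of 18 Ctrl animals and read 7.80, 7.98 and 8.10 in SOL against 7.54, 7.81 and 7.99 in TA, so the muscles overlapped. Mrpl33, a small protein of the large subunit, read 10.69, 10.96 and 11.21 against 10.31, 10.76 and 10.96. In mKO Mrps21, which did not pass in Ctrl (-0.16, adjusted p = 0.188), was lower by 0.47 on the log2 scale (adjusted p = 0.000155). Mrpl33 (-0.30, adjusted p = 5.27e-07) and Mrps9 (-0.17, adjusted p = 4.53e-05) had smaller p in limma there. By class, 14 of 27 large subunit proteins with a bacterial counterpart and 10 of 21 found only in mitochondria were higher in TA of Ctrl, as were 6 of 17 and 3 of 9 small subunit proteins. Without Ctrl ZT0 replicate A, whose TA carried the most liver transcripts, 30 members were higher (23.1% of all genes) and 7 lower (19.9%). Without Ctrl ZT16 replicate A, 4 were lower (19.5% of all genes).

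**Figure D4:**
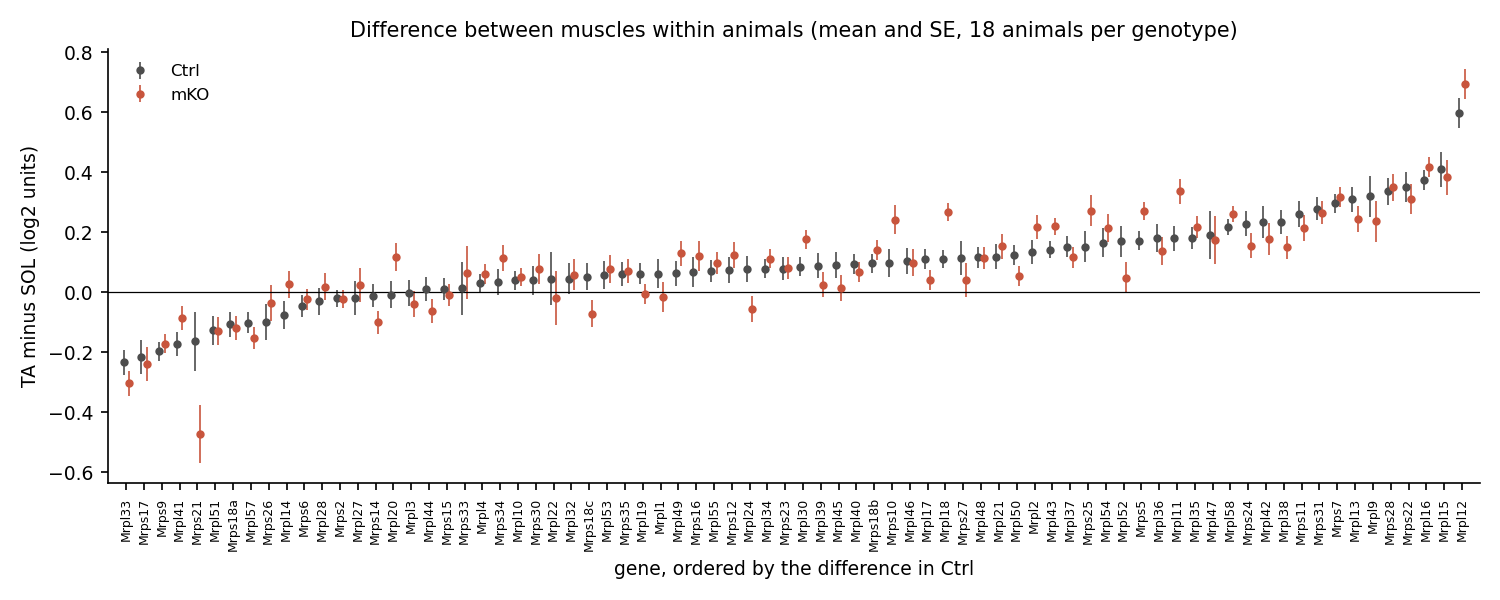
Mean difference between TA and SOL of the same animals in log2 units, with the SE of the fit, for each of the 76 genes in Ctrl (grey) and mKO (red), ordered by the value in Ctrl. Mrpl12 stands at the right end near 0.60 and Mrpl33 at the left end near -0.23.

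The same comparison in Ctrl called 24 of 76 respiratory chain and ATP synthase subunits higher and 22 lower in TA, with a median of 0.01. Cytosolic ribosomal proteins gave 8 higher and 5 lower of 40. Of the genes that serve mitochondrial translation, 7 of 13 translation factors, 8 of 16 synthetases and 11 of 22 assembly factors were higher in TA, and 2, 4 and 3 lower. Adipocyte markers were lower in TA in 6 of 6 cases, endothelial ones in 5 of 7, and fibroblast and tendon ones in 4 of 8 with 1 higher. Their part in the differences between muscles was not tested.

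Few members passed a test of daily rhythm, and few of all genes did. A 24 h cosine was fitted, whose amplitude in log2 units measures how far the peak rises over the mean. In SOL of Ctrl 3 members passed, against 6.05% of all genes, and 10 at an unadjusted p under 0.05. The call rate of the members was 3.95%, and whether it differs from that background was not tested. When the 6 times were tested with no fixed shape, 0 of these 3 passed (6 members at an unadjusted p under 0.05 in limma, and 3.52% of all genes called).

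Mrpl34, a large subunit protein with a bacterial counterpart, had an amplitude of 0.14 and a peak at ZT20.0 (adjusted p = 0.0177). Its SOL Ctrl animals read 10.12, 9.93 and 9.95 at ZT8 and 10.20, 10.33 and 10.23 at ZT20. The times printed for rhythmic members lie near the fitted low and peak, so their separation is no further test. Mrpl46, found only in mitochondria, had an amplitude of 0.19 and a peak at ZT16.8 (adjusted p = 0.0275), with 7.85, 8.01 and 8.17 at ZT4 and 8.63, 8.21 and 8.35 at ZT16. Mrpl12 had an amplitude of 0.13 and a peak at ZT18.6 (adjusted p = 0.0302), with 9.61, 9.56 and 9.77 at ZT8 and 10.02, 9.96 and 9.80 at ZT20. All 3 peaked in the dark phase and had their lowest means in the light phase. Leaving out Ctrl ZT8 replicate B (5.51% of all genes), ZT20 replicate A (5.51%) or ZT20 replicate B (5.26%) left 1 call.

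In SOL of mKO 0 members passed, against 5.68% of all genes, with 6 at an unadjusted p under 0.05 in limma. The smallest p belonged to Mrpl12 (amplitude 0.11, adjusted p = 0.0961), Mrpl34 (0.10, adjusted p = 0.140) and Mrps6 (0.11, adjusted p = 0.163). In TA of Ctrl 0 passed, against 2.7%, with 3 at an unadjusted p under 0.05, led by Mrps30 (amplitude 0.15, adjusted p = 0.0791). Mrps2 alone passed in TA of mKO, against 1.76% of all genes, with 8 members at an unadjusted p under 0.05. It had an amplitude of 0.12 and a peak at ZT17.7 (adjusted p = 0.0209), with mKO values of 9.25, 9.34 and 9.35 at ZT8 and 9.50, 9.61 and 9.53 at ZT16. In Ctrl its amplitude in TA was 0.02 (adjusted p = 0.967). Its call in mKO ended without mKO ZT8 replicate A or ZT16 replicate B, with arrays centred on their medians (adjusted p = 0.0790), and with no fixed shape (0 members, against 1.06% of all genes).

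**Figure D5:**
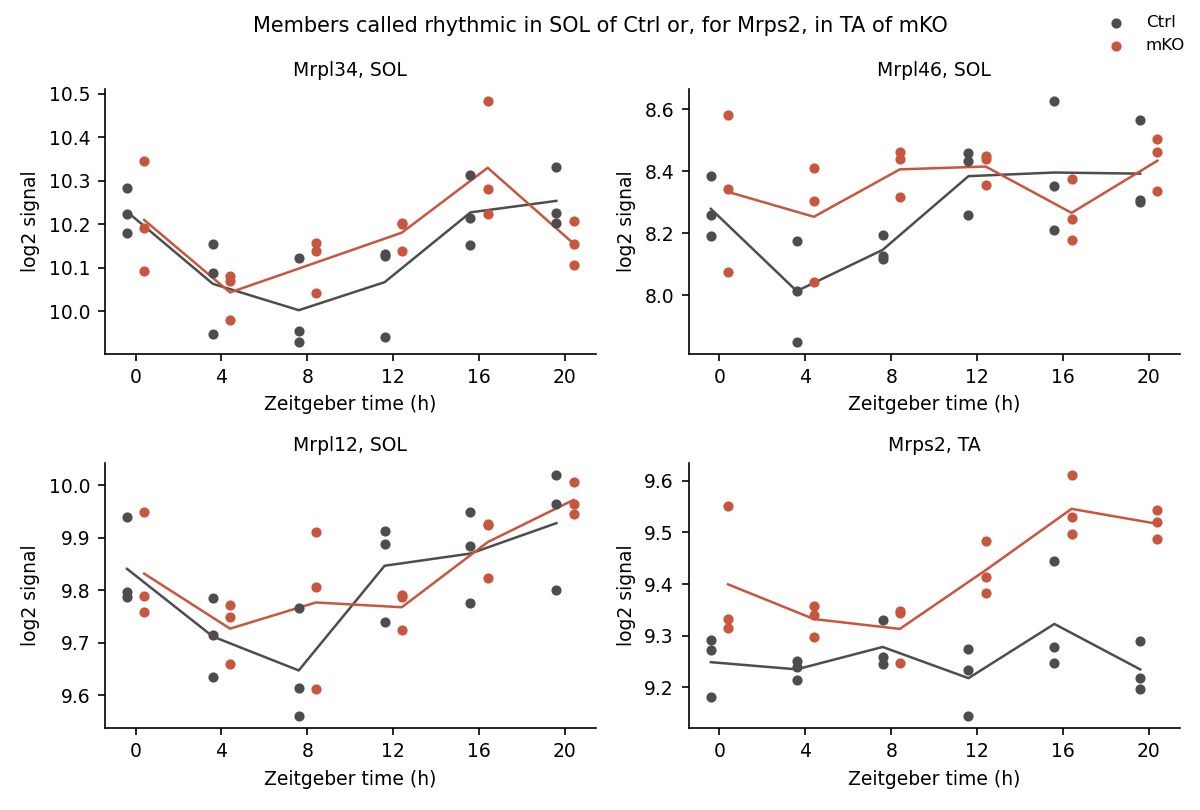
Log2 signal by Zeitgeber time in hours of Mrpl34, Mrpl46 and Mrpl12 in SOL and Mrps2 in TA, for Ctrl (grey) and mKO (red), 1 point per animal with lines through the means of 3. The SOL Ctrl means are lowest at ZT4 or ZT8, and those of Mrps2 in TA of mKO are highest at ZT16.

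The difference in rhythm between genotypes was tested directly and called 0 members in SOL, against 0.0395% of all genes, and 0 in TA, against 0.104%. At an unadjusted p under 0.05 there were 3 in each muscle by limma. The smallest p in SOL was that of Mrpl45 (difference vector of 0.18, adjusted p = 0.824) and in TA that of Mrpl46 (0.22, adjusted p = 0.840). For Mrps2 in TA the difference was 0.11 (adjusted p = 0.999), so its pass in mKO and not in Ctrl is not shown to be a difference between genotypes. The median amplitude over members was 0.06 in SOL of Ctrl, 0.05 in SOL of mKO, 0.04 in TA of Ctrl and 0.05 in TA of mKO, against 0.07, 0.08, 0.07 and 0.07 over all genes.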

How the data were processed

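RNA of SOL and TA was hybridised to whole-transcript arrays, 1 array per muscle and animal. The authors deposited RMA-normalised log2 signals, per the submitters' processing notes, and nothing was filtered or rescaled before the tests. Of 21225 probe sets, 20239 had 1 symbol in the platform annotation, 0 had several and 986 were unnamed. All members matched RefSeq by Entrez number. Probe sequences were not used here, so signal from pseudogenes or paralogs could not be checked.

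Groups, letters and animals came from the labels. Tests used limma 3.58.1 in R 4.3.3 with 1 term per group of genotype and time, on TA minus SOL within animals for the muscles, and on a cosine and a sine of 24 h for rhythm, with Benjamini-Hochberg adjustment over 20239 genes and a threshold of 0.05. Runs on animals of some identification series alone used additive terms for time and genotype instead. Precision is limited by how many arrays there are. The pipeline was tested on simulated data. Same-animal muscles had deviations with a median r of 0.046, over 0.1 in 11 of 36 pairs, and the pairing comes from the labels. Same-letter animals of both genotypes had a median r of 0.084 in SOL, over 0.1 in 9 of 18 pairs, and of 0.161 in TA, over 0.1 in 12 of 18. Letters were not used as pairs, because not every pair exceeded 0.1 and the labels name nothing that a letter shares. Not every pair of muscles exceeded 0.1 either, and their pairing rests on the labels alone. The rule was to name up to 6 called members of smallest p per direction (3 where none passed). For some comparisons fewer of these are printed here, and members named besides were chosen after their values were seen. The members and lists were chosen with earlier results of these data known.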

Additional observations from a re-analysis of the deposited data

Results flagged for a closer look

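The genotype effect on Mrpl18 differed between the muscles by a test of the difference itself, with TA exceeding SOL by 0.16 ± 0.043 (SE) log2 units (adjusted p = 0.0350 in limma, 36 animals). The difference TA minus SOL was positive in 18 of 18 mKO animals, from 0.07 to 0.53, and in 15 of 18 Ctrl animals, from -0.05 to 0.31. The adjusted p ran from 0.0136 to 0.194 over the alternatives. It was the 1 member of 76 called in this direction (1.32%), against 1.2% of all genes, so the call rate is near the background. Leaving out any 1 of 18 of the 36 animals ended the call.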

How the results depend on the processing

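In the genotype and muscle comparisons, up to 6 called members per direction, those of smallest p, were followed through the alternative runs. None of them changed direction, and the further members named for those comparisons were not followed. With a replicate block, 12 members were called higher in SOL (13 without), and 21 higher and 1 lower in TA, as without it, and the replicate block changed no other count by over 1.5 times. Array weights called 22 higher in SOL (5.24% of all genes, against 3.56%) and 23 in TA (13.7%, against 6.76%). BM3 animals alone called 3 higher in SOL (1.18%) and 11 in TA (4.23%), and BM2 and BM2* animals alone 0 (0.425%) and 0 (0.82%), with 0 lower in TA. These subsets hold fewer animals and were fitted with additive terms for time and genotype. Leaving out 1 animal gave 10 to 19 higher in SOL, 19 to 22 higher and 1 to 2 lower in TA (2 without mKO ZT16 replicate B, 7.7% of all genes). The call of Mrpl18 between muscles became 0 with arrays centred on their medians (0.924% of all genes), with the identification series as a term (1.03%), without ZT20 (0.81%) and with muscles unpaired (1.27%). It was 0 to 1 on leaving out 1 animal. The 3 rhythmic members in SOL of Ctrl became 5 with quantile normalisation repeated (7.1% of all genes) and 0 with 6 times of no fixed shape (3.52%). They were 1 to 4 on leaving out 1 animal (1 without Ctrl ZT8 replicate B, ZT20 replicate A or ZT20 replicate B, at 5.51%, 5.51% and 5.26%). SOL of mKO gave 1 with genes above the median level alone (12.8% of those genes), 1 with quantile normalisation (6.2% of all genes), and 0 to 1 on leaving out 1 animal (1 without mKO ZT8 replicate C, 5.05%). TA of Ctrl gave 1 with genes above the median level alone (6.8% of those genes) and 0 to 1 on leaving out 1 animal (1 without mKO ZT12 replicate C, 2.8% of all genes). TA of mKO gave 0 with centred arrays (1.3% of all genes), 0 with no fixed shape (1.06%), and 0 to 1 on leaving out 1 animal (0 without mKO ZT8 replicate A or ZT16 replicate B, at 1.44% and 1.26%). The 7 members lower in TA of Ctrl became 4 with centred arrays (18.5% of all genes) and 4 to 7 on leaving out 1 animal (4 without Ctrl ZT16 replicate A, 19.5%). At ZT0 in TA the 3 members called (0.835% of all genes) became 1 with centred arrays (0.46%) and 0 without Ctrl replicate A and mKO replicate C (0.455%). They became 1 without Ctrl replicate A alone (0.544%) and 1 without mKO replicate C alone (0.558%). The share of all genes called thus fell as well, and these alternatives were chosen after seeing the data. The causes were not tested. Most effects lie under the SD within groups, so single animals do not show them, and dim members such as Mrpl27 limit what their probes can show.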
